A study of Mus musculus with 6 samples.

Results

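The 10 genes described here encode the FOS and JUN proteins, which make up the core of the transcription factor AP-1, and 3 zinc finger factors of the early growth response (EGR) family. They were taken by symbol, Fos, Fosb, Fosl1, Fosl2, Jun, Junb, Jund, Egr1, Egr2 and Egr3, from a table of 43346 genes, and all 10 were found and passed the filter on low counts that left 14000 genes for testing. The RNA came from primary embryonic fibroblasts of C57BL/6 mice at passage 9, kept for 24 h with 3 µM erastin (3 libraries) or with the solvent DMSO (3 libraries), and was sequenced as total RNA after ribosomal RNA depletion. Erastin inhibits the cystine/glutamate exchanger of the plasma membrane and is a standard inducer of ferroptosis, an iron-dependent form of cell death. The growth medium of both groups contained 2-mercaptoethanol, a reducing thiol. The labels do not say whether the 3 libraries of a group came from separate embryos or cultures, so the p-values measure the spread between these libraries, which may be technical.

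AP-1 is a dimer of leucine zipper proteins. JUN proteins pair with each other, with FOS proteins or with ATF proteins, whereas FOS proteins mostly pair with a JUN protein. FOS and FOSB carry strong activation domains, FRA-1 (from Fosl1) and FRA-2 (from Fosl2) lack them, and JUNB and JUND are weaker activators than JUN in many settings. EGR proteins bind GC-rich sites, and NAB1 and NAB2 are their corepressors. Most of these genes are immediate early genes: growth factors and stress switch them on within minutes through MAP kinases, the serum response factor SRF and factors already present in the cell, and their mRNAs usually decay quickly. All libraries were taken after a day of treatment, so when the levels first changed was not measured.

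Sequences before the transcription start are shown for 5 of the genes, because they carry short motifs of the factors known to switch these genes on or of the families themselves. They come from RefSeq promoters on build GRCm38.p6, whose table held 7 of the 10 genes. Fosl1, Egr1 and Egr3 had no entry there and were not searched. Egr2 has several RefSeq starts, and the one directly after the interval given is used. It lies 2395 bases from the GENCODE start of the gene. Each sequence covers the 140 bases before the start, 5′ to 3′ on the gene's strand, with every motif match in capitals.
Jun (chr4:95052223-95052362, strand -): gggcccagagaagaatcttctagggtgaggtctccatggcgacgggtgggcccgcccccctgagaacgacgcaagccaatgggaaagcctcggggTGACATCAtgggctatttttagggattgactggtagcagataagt
Fos (chr12:85473750-85473889, strand +): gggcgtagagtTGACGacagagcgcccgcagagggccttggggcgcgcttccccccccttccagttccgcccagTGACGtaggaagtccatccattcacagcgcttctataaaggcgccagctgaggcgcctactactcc
Fosb (chr7:19310046-19310185, strand -): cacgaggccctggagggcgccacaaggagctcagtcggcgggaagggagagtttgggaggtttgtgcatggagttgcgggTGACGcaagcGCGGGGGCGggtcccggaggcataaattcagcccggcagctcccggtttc
Junb (chr8:84978749-84978888, strand -): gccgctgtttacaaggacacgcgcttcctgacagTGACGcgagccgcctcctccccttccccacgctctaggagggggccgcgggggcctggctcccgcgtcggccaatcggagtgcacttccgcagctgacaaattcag
Egr2 (chr10:67537730-67537869, strand +): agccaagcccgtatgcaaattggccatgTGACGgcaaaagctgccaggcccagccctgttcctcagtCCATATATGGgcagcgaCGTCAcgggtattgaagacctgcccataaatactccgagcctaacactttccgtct

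Positions are counted back from the transcription start, and 6 motifs were searched on both strands of the 250 bases before it. The Jun sequence held TGACATCA at positions 45 to 38, the element through which JUN and ATF2 are known to act on the Jun gene; 2.93% of 32851 mouse promoters held it in a window of that length. The Egr2 sequence held a CArG box, the binding site of SRF, at positions 73 to 64, a motif found in 1.47% of promoters. Another Egr2 start, 2091 bases from the GENCODE gene start, had a different CArG box, CCTTTTTTGG, at 72 to 63. TGACG, the core of the cAMP response element, stood at positions 66 to 62 and 129 to 125 of Fos, 60 to 56 of Fosb, 106 to 102 of Junb and 112 to 108 of Egr2, with CGTCA, its reverse, at 56 to 52 of Egr2. It is short, and 17.8% of promoters held it. GCGNGGGCG, the EGR motif, matched Fosb at positions 50 to 42, just downstream of its TGACG, and Fosl2 at 79 to 71, against 4.70% of all promoters. The Fosl2 start used lies 671 bases from the GENCODE gene start. TGACGTCA (1.55% of promoters, and it contains TGACG) and the AP-1 motif TGANTCA (6.75%) had no match in the windows of the 7 genes searched. Jund, also searched, matched none of the 6 motifs. The matches describe the letters only. No binding was measured.

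Expression of 9 of the 10 genes rose with erastin, and none fell. All 10 fitted changes were upward: their log2 fold changes ran from 0.22 to 3.07 around a median of 1.15. Genes were called at an adjusted p-value under 0.05 in edgeR, adjusted over all genes tested, of which 43.1% passed in either direction and 21.6% as higher. Over all genes tested the median was -0.0014. The largest changes were those of Fosl1, Fosb, Egr1, Jun and Egr3, all with a log2 fold change of at least 1, which 4.99% of all genes reached as higher and passing; 7.16% passed as lower at -1 or below, and none of the 10 did. The smallest were those of Fosl2 and Jund. In 8 genes all 3 erastin libraries lay above all 3 DMSO libraries; 26.7% of all genes tested were separated upward in this way and 52.5% in either direction. Jund and Egr2 overlapped between the groups. Levels are given as CPM, read counts scaled to a common library size.

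**Figure D1:**
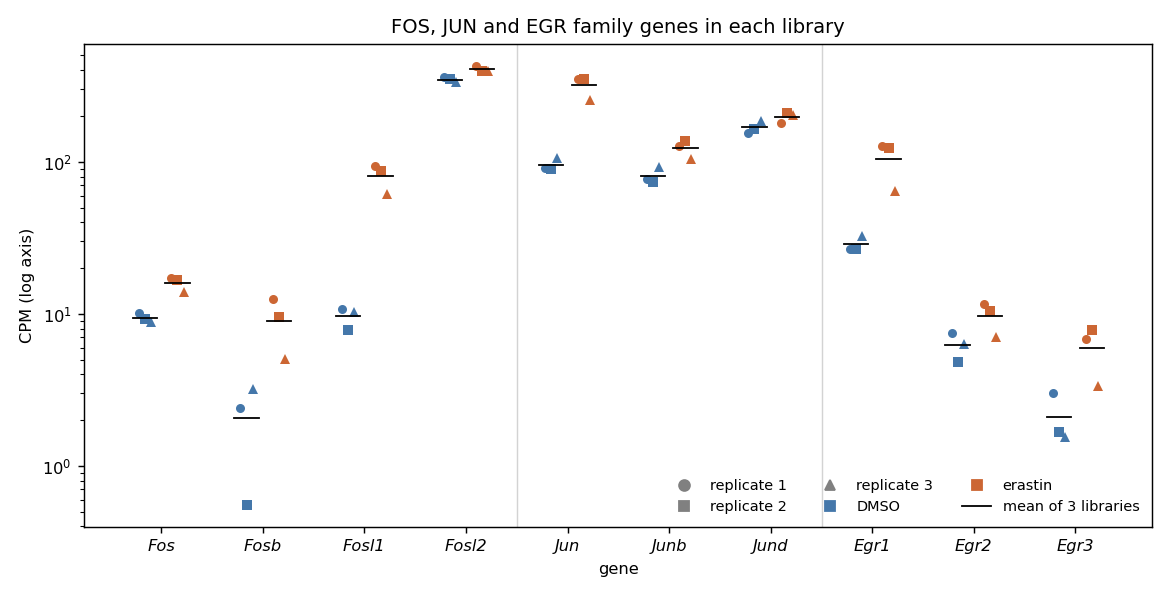
CPM (log axis) of the 10 genes in each of the 6 libraries; symbols mark the replicate, colours the treatment and lines the mean of 3 libraries. Fosl1 goes from 7.82 to 10.8 CPM in DMSO libraries to 61.7 to 93.1 CPM in erastin libraries, and erastin replicate 3 is the lowest erastin library for 9 of the 10 genes.

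Of the FOS genes, Fosl1 had the largest change. It encodes FRA-1, an AP-1 subunit known from growth-stimulated and invasive cells. Fosl1 (ENSMUSG00000024912.5, chromosome 19, 5447547 to 5455946, plus strand, GENCODE M21 on GRCm38) had 10.8, 7.82 and 10.4 CPM in DMSO replicates 1 to 3 and 93.1, 87.1 and 61.7 CPM in erastin replicates 1 to 3. The groups were far apart, with the lowest erastin library above 5 times the highest DMSO library. The log2 fold change was 3.07 (SE 0.16, edgeR adjusted p = 3.96e-09), an 8.42-fold rise that ranked 50 among the 14000 genes tested. In the annotation 1163 exonic bases of Fosl1 are shared with Ccdc85b on the opposite strand, and whether the counting used strand is not given in the sources used here. Ccdc85b moved the other way (log2 fold change -1.49, SE 0.28) and had at most 207 reads in a library, against 1190 to 2000 reads of Fosl1 with erastin. The reads of such a neighbour do not show how reads in the shared bases were counted, here or for Jun, Junb and Jund below.

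Fosb, the FOS gene known for its accumulating splice form in chronically stimulated neurons, rose from a very low level. Fosb (ENSMUSG00000003545.2, chromosome 7, 19302696 to 19310051, minus strand) had 2.42, 0.554 and 3.19 CPM with DMSO, from 32, 10 and 41 reads, and 12.4, 9.52 and 5.08 CPM with erastin, from 267, 159 and 98 reads. DMSO replicate 2 and erastin replicate 3 were the low libraries of their groups, and the spread relative to the mean was the widest among the FOS genes. For Fosb the log2 fold change was 2.18 (SE 0.47, edgeR adjusted p = 0.00175). Gene counts do not separate the full-length form from the shorter one.

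Fos itself, the founding immediate early gene, changed less. Fos (ENSMUSG00000021250.9, chromosome 12, 85473890 to 85477273, plus strand) had 10.1, 9.20 and 8.80 CPM with DMSO and 17.1, 16.7 and 13.8 CPM with erastin. The libraries within each group were close together and the groups did not overlap. Its log2 fold change was 0.77 (SE 0.17, edgeR adjusted p = 0.00245), a 1.70-fold rise.

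Fosl2, which encodes FRA-2, was the most counted of the 10 genes and rose by the least. Fosl2 (ENSMUSG00000029135.9, chromosome 5, 32135801 to 32157842, plus strand) had 358, 348 and 336 CPM with DMSO and 427, 394 and 393 CPM with erastin. The groups did not overlap, but the highest DMSO and lowest erastin libraries lay close. The log2 fold change was 0.22 (SE 0.069, edgeR adjusted p = 0.0178), and it did not pass without DMSO replicate 2 (0.22, edgeR adjusted p = 0.0569), without erastin replicate 1 (0.18, edgeR adjusted p = 0.108) or with upper-quartile scaling (0.17, edgeR adjusted p = 0.0669).

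Of the JUN genes, Jun rose most. It encodes c-JUN, which JNK phosphorylates and which acts on its own promoter. Jun (ENSMUSG00000052684.4, chromosome 4, 95049034 to 95052222, minus strand, a single exon) had 91.6, 89.1 and 106 CPM with DMSO and 352, 351 and 255 CPM with erastin. Erastin replicate 3 was below the other erastin libraries and still above 2 times any DMSO library. The log2 fold change was 1.74 (SE 0.11, edgeR adjusted p = 3.09e-08), a 3.34-fold rise. The antisense gene Junos shares 232 exonic bases with Jun and had at most 35 reads in a library, against at least 1212 of Jun.

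Junb, whose product often restrains JUN, rose by a smaller amount. Junb (ENSMUSG00000052837.5, chromosome 8, 84974484 to 84978718, minus strand) had 77.2, 73.5 and 92.6 CPM with DMSO and 128, 137 and 104 CPM with erastin. DMSO replicate 3 and erastin replicate 3 stood nearest to each other, without overlap. For Junb the log2 fold change was 0.60 (SE 0.11, edgeR adjusted p = 0.000526). It was 0.92 (edgeR adjusted p = 2.26e-06) once smooth trends of the counts with GC content and transcript length were removed from each library. Prdx2, on the other strand, shares 173 exonic bases with Junb and was lower with erastin (log2 fold change -0.67, SE 0.076).

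Jund, the JUN gene known for steady expression in resting cells, had the least certain change of this family. Jund (ENSMUSG00000071076.5, chromosome 8, 70698949 to 70700616, plus strand, a single exon) had 155, 164 and 186 CPM with DMSO and 181, 211 and 202 CPM with erastin. DMSO replicate 3 lay above erastin replicate 1, so the groups overlapped. The log2 fold change was 0.23 (SE 0.087, edgeR adjusted p = 0.0431). It did not pass without DMSO replicate 1 (0.18, edgeR adjusted p = 0.162), DMSO replicate 2 (0.22, edgeR adjusted p = 0.126), erastin replicate 2 (0.18, edgeR adjusted p = 0.165) or erastin replicate 3 (0.22, edgeR adjusted p = 0.0889), nor with upper-quartile scaling (0.18, edgeR adjusted p = 0.111). With the GC and length trends removed it was 0.63 (edgeR adjusted p = 1.87e-05). Jund has the highest GC content of the 10 genes, 67.2% in its longest transcript, against 51.4% to 62.6% in the others. Its antisense neighbour Gm11175 shares 877 exonic bases with it and had at most 10 reads in a library.

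Egr1 rose most of the EGR genes. It encodes a zinc finger activator that SRF and its ELK partners switch on through several CArG boxes. Egr1 (ENSMUSG00000038418.7, chromosome 18, 34859823 to 34864984, plus strand) had 26.5, 26.8 and 32.6 CPM with DMSO and 127, 123 and 64.6 CPM with erastin. Erastin replicate 3 was well below the other erastin libraries and above every DMSO library. For Egr1 the log2 fold change was 1.88 (SE 0.19, edgeR adjusted p = 2.51e-06), a 3.67-fold rise.

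Egr3, known from activated lymphocytes and muscle spindles, rose as well, at a much lower level. Egr3 (ENSMUSG00000033730.3, chromosome 14, 70077203 to 70082614, plus strand) had 3.02, 1.66 and 1.56 CPM with DMSO, from 20 to 40 reads, and 6.84, 7.78 and 3.37 CPM with erastin, from 65 to 147 reads. The highest DMSO and lowest erastin libraries were close. Its log2 fold change was 1.53 (SE 0.39, edgeR adjusted p = 0.00574).

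Egr2, also called Krox20 and known for hindbrain patterning and Schwann cell myelination, did not pass. Egr2 (ENSMUSG00000037868.11, chromosome 10, 67535475 to 67542188, plus strand) had 7.48, 4.82 and 6.31 CPM with DMSO and 11.7, 10.5 and 7.0 CPM with erastin. Erastin replicate 3 lay below DMSO replicate 1. The log2 fold change was 0.66 (SE 0.26, edgeR adjusted p = 0.0510). It passed in 7 of 15 alternative fits, among them those without DMSO replicate 1 (0.81, edgeR adjusted p = 0.0403) and without erastin replicate 3 (0.85, edgeR adjusted p = 0.0144), and its adjusted p ranged from 0.0144 to 0.225 over the 15.

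**Figure D2:**
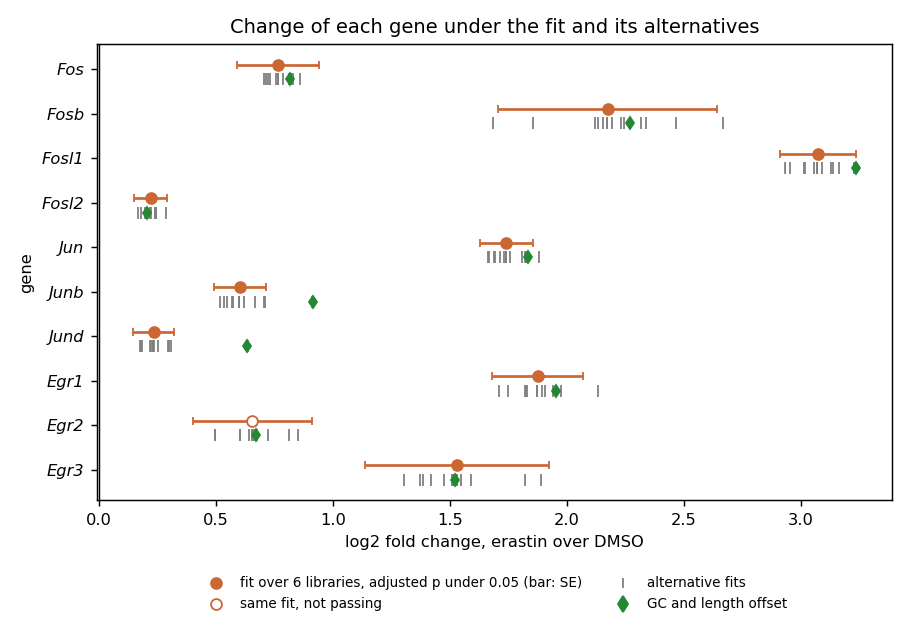
Log2 fold change of each gene, erastin over DMSO, with its SE (circles and bars), and the same value under each alternative fit (grey ticks; green diamonds mark the fit with GC and length trends removed). All values lie above 0; Jund moves from 0.23 to 0.63 and Junb from 0.60 to 0.92 under the GC and length offset, and the open circle of Egr2 did not pass.

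Erastin replicate 3 was the lowest of the erastin libraries for 9 of the 10 genes, all except Jund, and the highest for none. Among the 3024 genes called higher with erastin it was the lowest of the 3 for 45.6%. Its total count, 18854641, was between those of the other erastin libraries, 20509970 and 16800789. Without erastin replicate 3, 9 of the 10 genes passed: Egr2 then did and Jund did not.

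Counts were divided by the length of each gene's merged exons to compare levels between genes. Of these bases, 1163 of 2033 in Fosl1 and 877 of 1668 in Jund are shared with genes on the opposite strand. The strand setting is not given, so whether reads there were counted is not known. The levels of Fosl1 and Jund may therefore be too low. In the DMSO libraries Jund had the highest level, 101 ± 9.51 CPM per kb (SD, n = 3). Fosl2 (35.9 ± 1.14), Junb (35.3 ± 4.41) and Jun (30.0 ± 2.84 CPM per kb) followed, with ranges that overlapped between neighbours. Egr1 (6.39 ± 0.769), Fosl1 (4.75 ± 0.793) and Fos (3.98 ± 0.272 CPM per kb) formed a lower tier, in which the ranges of Fosl1 and Fos overlapped. Egr2 (1.83 ± 0.392), Egr3 (0.472 ± 0.186) and Fosb (0.329 ± 0.217 CPM per kb) were lowest, and the ranges of Egr3 and Fosb overlapped.

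With erastin Jun stood beside Jund, at 100.1 ± 17.5 and 119 ± 9.27 CPM per kb with overlapping ranges (SD, n = 3). Junb had 53.4 ± 7.38 CPM per kb, above the range of Fosl2 (41.8 ± 1.99), while the range of Fosl1 (39.7 ± 8.20 CPM per kb) overlapped both. Egr1 followed with 23.4 ± 7.81 and Fos with 6.76 ± 0.760 CPM per kb. Egr2 had 2.86 ± 0.716, Fosb 1.44 ± 0.593 and Egr3 1.36 ± 0.528 CPM per kb, and the ranges of Fosb and Egr3 overlapped.

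Shares of each member in the summed level of its family describe the make-up of the family at the RNA level. The shared exonic bases of Fosl1 and Jund limit these shares and the family sums as they limit the levels. Fosl2 held 79.9% ± 1.90 of the summed FOS level in DMSO libraries and 47.0% ± 4.6 in erastin libraries (SD, n = 3), while Fosl1 went from 10.6% ± 1.53 to 43.9% ± 4.18. In single erastin libraries the Fosl1 share was 46.2%, 46.5% and 39.1%, against 8.78% to 11.6% in DMSO libraries. The share of Fos was 8.84% ± 0.316 with DMSO and 7.54% ± 0.182 with erastin, although its own level rose. On plain counts, which weight genes by length, the Fosl1 share was higher by 13.1 percentage points instead of 33.4, and that of Fosl2 differed by -14.9 instead of -32.9. The share of Fos was then higher with erastin, by 0.58 percentage points. Per kb, the Fosb share stayed at or under 2.01% in every library.

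In the JUN family Jund held 60.8% ± 1.26 of the summed level with DMSO and 43.8% ± 4.92 with erastin, and Jun 18.0% ± 0.446 and 36.6% ± 3.92 (SD, n = 3). The Junb share was 21.2% ± 0.894 and 19.6% ± 1.05. In the EGR family Egr1 held 73.6% ± 5.54 with DMSO and 84.5% ± 0.813 with erastin, and Egr2 21% ± 3.58 and 10.6% ± 1.23. The shares of Egr3 were 5.46% ± 2.10 and 4.86% ± 0.543, a difference that changed sign without DMSO replicate 1. The 10 shares were tested together by exact two-sided permutation over libraries. Those of Fos, Fosl1, Fosl2, Jun, Jund, Egr1 and Egr2 gave p = 0.10 (0.143 adjusted), the smallest value that 3 against 3 libraries allow, those of Fosb and Junb gave exact permutation p = 0.20 (0.222 adjusted), and that of Egr3 gave 0.80.

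The summed FOS level was 45.0 ± 1.78 CPM per kb with DMSO and 89.7 ± 11.0 with erastin (SD, n = 3), a ratio of 1.99. The JUN sum was 166 ± 16.3 and 272 ± 25.1 (ratio 1.64), and the EGR sum 8.68 ± 0.863 and 27.6 ± 9.02 CPM per kb (ratio 3.18). Each sum was higher in all 3 erastin libraries than in any DMSO library, with an exact two-sided permutation p = 0.10, again the smallest possible. The EGR sum was the most uneven, at 33.4, 32.3 and 17.2 CPM per kb in erastin replicates 1 to 3.

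**Figure D3:**
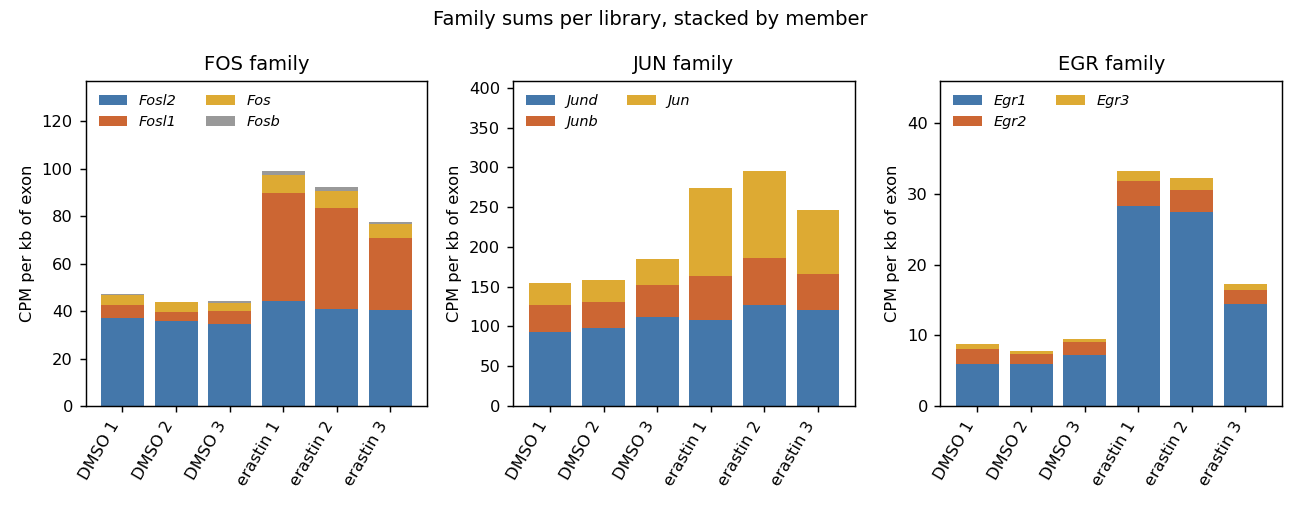
Summed CPM per kb of exon of the FOS, JUN and EGR families in each library (1 bar per library), stacked by member. Fosl1 grows from 8.78% to 11.6% of the FOS bar in DMSO libraries to 39.1% to 46.5% in erastin libraries, and the EGR bar of erastin replicate 3 is 17.2 against 33.4 and 32.3 CPM per kb in the other erastin libraries.

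Other immediate early genes moved in the same direction for the most part. Of 42 listed and tested, 33 were higher, 4 lower and 5 did not pass (edgeR), beside 21.6% higher and 21.5% lower over all genes. The median log2 fold change was 1.13. The 3 with the smallest p-values among those higher were Rhob, an endosomal GTPase gene (183 ± 4.78 to 561 ± 57.5 CPM, SD, n = 3), Csrnp1, a nuclear protein gene induced by AXIN1 (17.9 ± 1.80 to 129 ± 28.1 CPM), and Klf6, a zinc finger factor gene (201 ± 8.76 to 521 ± 35.3 CPM), with log2 fold changes of 1.62, 2.85 and 1.37. Lower were Socs3, an inhibitor of cytokine signalling (log2 fold change -1.56), Ier5l (-1.18), Srf itself (-0.63) and Zfp36l1, which encodes an mRNA decay factor (-0.29; chosen after its values were seen). The 5 that did not pass, also named after their values were seen, were Zfp36, Zfp36l2, Sik1, Egr4 and Npas4, at log2 fold changes of 0.0077, 0.075, 0.12, -0.0077 and -1.05. Erastin replicate 3 was the lowest erastin library for 30 of the 33 genes that rose, as it was for the AP-1 and EGR genes.

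The possible partners of FOS and JUN changed unequally. Of 15 listed genes 13 were tested, and 8 were higher and 2 lower (edgeR), beside 21.6% and 21.5% of all genes. Their median log2 fold change was 0.33. Atf3, a stress-induced bZIP factor that can pair with JUN, had 4.73 ± 2.93 CPM with DMSO and 115 ± 14.2 CPM with erastin (SD, n = 3; log2 fold change 4.59, edgeR adjusted p = 7.25e-09); it is also in the list of immediate early genes. Atf4 and Mafg had log2 fold changes of 0.93 and 0.88. Batf, a bZIP factor of lymphocytes, was lower at 1.36 ± 0.212 and 0.232 ± 0.128 CPM (log2 fold change -2.54, edgeR adjusted p = 0.00707). Its values rest on 15, 28 and 18 reads with DMSO and 5, 6 and 2 reads with erastin, so depth limits them. Maf was lower by a log2 fold change of -0.53 (edgeR adjusted p = 0.0149) and did not pass without DMSO replicate 2 (edgeR adjusted p = 0.0505) or erastin replicate 1 (edgeR adjusted p = 0.0831).

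The corepressors of the EGR proteins were lower with erastin. Nab1 had 67.2 ± 0.317 CPM with DMSO and 42.6 ± 2.42 CPM with erastin (SD, n = 3), and its log2 fold change was -0.66 (edgeR adjusted p = 3.42e-05). Nab2 had 167 ± 7.06 and 135 ± 9.19 CPM, with a log2 fold change of -0.30 (edgeR adjusted p = 0.00634), but did not pass with the GC and length trends removed (-0.12, edgeR adjusted p = 0.222). Fhl2, a LIM protein gene, was lower by a log2 fold change of -0.59. In this list of 5 genes 0 were higher and 3 lower in the edgeR fit, beside 21.6% and 21.5% of all genes. At an unadjusted p-value under 0.05, and with DESeq2, 0 were higher as well. Egr4 and Wt1 did not pass, at about 1 CPM with DMSO.

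Genes of the MAP kinase and SRF input that passed included both higher and lower ones. Of 26 tested, 4 were higher, 5 lower and 17 did not pass (edgeR), beside 21.6% higher and 21.5% lower over all genes, and the median log2 fold change was -0.027. Map2k1 and Mapk8, which encode MEK1 and JNK1, had log2 fold changes of 0.57 and 0.60. Mapk8 did not pass with the GC and length trends removed (0.35, edgeR adjusted p = 0.0782). Mapk3, which encodes ERK1, and Hras had log2 fold changes of -0.63 and -0.51, like Srf at -0.63. With those trends removed Srf was at -0.28 and still passed (edgeR adjusted p = 0.0147). These are mRNA levels and say nothing of kinase activity.

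Among feedback inhibitors of MAP kinases most genes were higher. Of 14 tested genes 10 were higher and 3 lower (edgeR), beside 21.6% and 21.5% of all genes, with a median log2 fold change of 1.0. The phosphatase genes Dusp10 (8.43 ± 0.396 to 118 ± 24.9 CPM), Dusp4 (70.2 ± 5.86 to 375 ± 55.8 CPM) and Dusp1 (88.8 ± 15.0 to 274 ± 23.5 CPM, SD, n = 3 each) had the smallest p-values among those that rose. Spry1, an inhibitor of receptor tyrosine kinase signalling, had 123 ± 6.5 CPM with DMSO and 29.7 ± 6.88 CPM with erastin, and its log2 fold change was -2.05 (edgeR adjusted p = 2.17e-08), while Dusp7 and Spred1 had log2 fold changes of -0.74 and -0.39, the latter -0.61 with the GC and length trends removed.

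Genes known as AP-1 targets were mostly higher, and genes known as EGR targets were split. Of 20 AP-1 targets tested, 12 were higher and 4 lower (edgeR), beside 21.6% and 21.5% of all genes. Their median log2 fold change was 1.21. Hmox1, Vegfa and Ptgs2, all of which also answer to other stress factors, had log2 fold changes of 3.86, 2.06 and 2.67. Ccl2, a chemokine gene (log2 fold change -1.61), Ccnd1, the cyclin D1 gene (-0.59), and Plau, the urokinase gene (-0.58), were lower. Of 18 EGR targets 7 were higher and 7 lower, beside the same shares of all genes, with a median log2 fold change of -0.093. Gdf15, Vegfa and Cdkn1a rose by 4.35, 2.06 and 0.91 on the log2 scale, while Nab1, given above, was among the lower ones. The lists share members, Vegfa and Cd44 among them, and were not compared by a test.

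**Figure D4:**
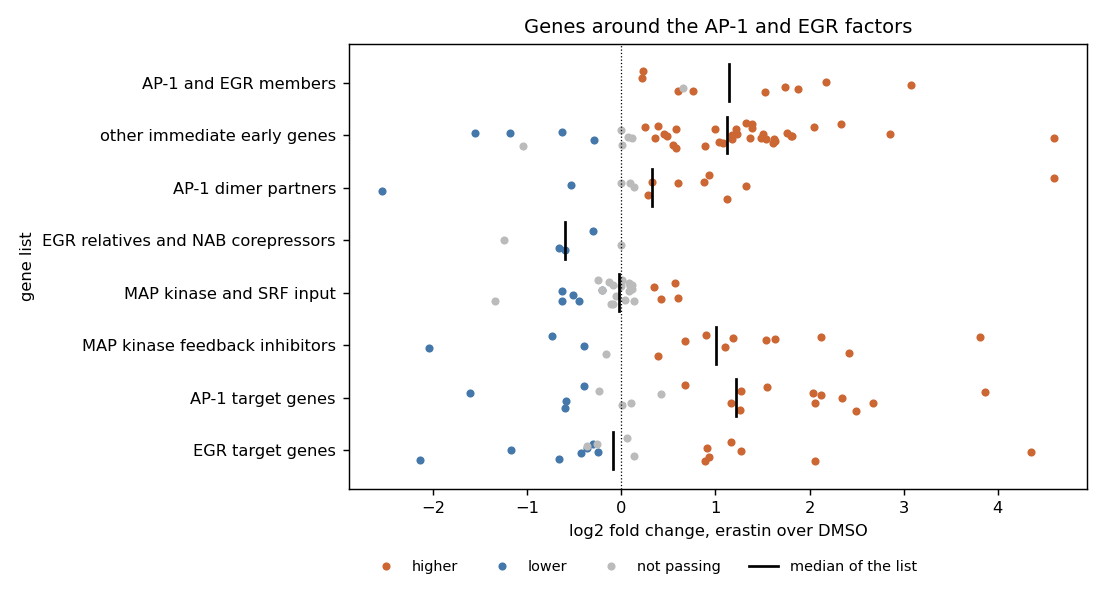
Log2 fold change, erastin over DMSO, of each tested gene in 8 gene lists; colour gives the edgeR call at an adjusted p-value under 0.05, black bars the median of the list, and vertical scatter within a row has no meaning. The AP-1 and EGR genes (median 1.15) and the other immediate early genes (median 1.13) lie mostly to the right of 0, while the MAP kinase and SRF input genes centre near it (median -0.027).

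For Fos, Jun and Egr1 the genes with the most similar course over the 6 libraries were sought among 11251 genes that averaged 50 reads or more per library, as a description dominated by the treatment difference. The 5 closest to Fos were Slain2, Ptpre, Uck2, Gprc5a and Gpnmb, with Pearson's r of log2 CPM of 0.998 or more over 6 libraries. The 5 closest to Jun were Epha2, an ephrin receptor gene, Piezo1, a mechanosensitive channel gene, Slc25a37, the immediate early gene Nr4a1 and Cpne2, all at r of 0.998 or more. The 5 closest to Egr1 were Dhps, Mettl6, the immediate early gene Trib1, Errfi1, a feedback inhibitor of the EGF receptor, and Tet3, with r from 0.995 to 0.998. All points share the same 6 libraries and their depth.

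Total counts ran from 13333911 to 18505571 in DMSO and from 16800789 to 20509970 in erastin libraries, so that 1 read was worth 0.0466 to 0.0778 CPM. Of 10 fibroblast markers 9 were lower with erastin (edgeR; 21.5% of all genes were), and their summed level was 28890 to 30050 CPM with DMSO and 17010 to 18970 CPM with erastin. The markers of other cell types summed to less. The macrophage and blood markers summed to 22.0 to 41.4 CPM with DMSO and 26.9 to 55.7 CPM with erastin, with 0 of 5 tested passing (edgeR), 2 higher at an unadjusted p-value under 0.05 (Cd68 and Lyz2, named after their values were seen) and 1 higher with DESeq2. The endothelial genes Kdr and Tek were higher with erastin (summed list 4.66 to 7.10 and 13.2 to 16.4 CPM) while Pecam1 and Cdh5 were too low to test. The muscle list summed to 35.5 to 45.5 CPM with DMSO and 65.2 to 69.1 CPM with erastin. In it Des was higher, with Myod1 and Myog under 10 reads in every library. Epithelial markers summed to 2.18 to 3.25 CPM with DMSO and 2.14 to 3.17 CPM with erastin, and neural markers to 14.4 to 19.3 and 15.9 to 19.3 CPM. Hbb-bs and Neurod1 had 0 reads in every library. In bulk RNA fewer cells of a type and less RNA per cell cannot be told apart, and the part of these marker levels in the changes of the AP-1 and EGR genes was not tested.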

How the data were processed

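Read counts per gene, not normalized, were deposited by the authors for 3 DMSO and 3 erastin libraries; HTSeq 0.9.1, SAMtools and the build mm10 are named per the submitters' processing notes, and the aligner, annotation and strand setting are not given in the sources used here. Columns were matched to libraries through the labels' sample numbers (0 columns unused). Identifiers were matched without version to GENCODE M21 on GRCm38, the coordinates of mm10; 42462 of 43346 (98.0%) had a symbol.

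Counts were tested with edgeR 4.0.16 in R 4.3.3 (filterByExpr defaults, a minimum count of 10 and total of 15; TMM factors; glmQLFit and glmQLFTest; treatment as the only term; Benjamini-Hochberg over 14000 genes; threshold 0.05). SEs came from the fit's weights and posterior quasi-dispersion. CPM used the TMM-scaled totals, and levels per kb the merged exon length. The fit was tested on simulated counts with 200 changed genes. Alternatives were RLE, upper-quartile or no factors, other filters, the replicate block, leaving out each library, DESeq2 1.42.0, an offset for GC content and length (mgcv 1.9.3), a threshold of 0.01 and glmTreat. Depth (13333911 to 20509970 reads) limits low genes; PCR-amplified reads without molecular identifiers carry more than counting error. No pair of libraries agreed within sampling noise (chi-square per degree of freedom 11.0 or more).

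The genes and lists were chosen with earlier results of these data known. Genes named are all 10 members, the 3 with the smallest p-value in each direction of every other list, and the 5 most similar to Fos, Jun and Egr1; some genes that this rule names are not reported here, and others are said to be chosen after their values were seen. Fold changes are relative to the scaled totals, not per cell.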

Additional observations from a re-analysis of the deposited data

How the results depend on the processing

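The count of passing AP-1 and EGR genes, 9 as reported, ran from 7 to 10 under every alternative except glmTreat, with 0 lower in each. It was 7 with upper-quartile factors, 10 with scaling by total count, with no low-count filter, with DESeq2 and with the GC and length offset, and 7 to 9 when 1 library was left out. Against an absolute log2 fold change of 0.5, glmTreat called 5 of the 10 (5 higher), and 2110 of all genes, 958 higher and 1152 lower, in place of 6028, since it tests against a larger difference. Other immediate early genes passing, 37 as reported, ran from 32 to 37, and 26 of them passed with glmTreat. With the replicate block 9 of the 10 genes, 37 other immediate early genes and 5882 genes in all passed, and it changed no call of the 10 genes or of the genes named from the lists by smallest p-value; the other named genes were not refitted with it. Deviations of equally numbered libraries correlated at 0.060, 0.0034 and -0.0096 across genes, and 3 of 6 libraries correlated best with their own number, so equal numbers were not taken as pairs. Fos, Fosb, Fosl1, Jun, Junb, Egr1 and Egr3 passed in all 15 fits each; Fosl2, Jund and Egr2 changed sides as given beside their values.

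Differences in family shares (erastin minus DMSO, percentage points) depended on the length used. Per kb of the longest transcript that of Fos was -0.45 instead of -1.29 and that of Fosl1 29.2 instead of 33.4. On plain counts they were 0.58 for Fos, 13.1 for Fosl1, -14.9 instead of -32.9 for Fosl2, 21.9 instead of 18.6 for Jun and -4.30 instead of -1.61 for Junb, since longer genes then weigh more. That of Egr3, -0.60, ran from -1.47 to 0.56 when 1 library was left out, with 0.56 without DMSO replicate 1; the cause was not tested. Depth limits Fosb, Egr2 and Egr3, which had 10 to 99 reads in DMSO libraries.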
